A study of Mus musculus with 2 samples.

Results

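The genes described here encode the enzymes of cholesterol and fatty acid synthesis together with the regulators that set their transcription. Of 32 symbols chosen by name and not by measured value, 31 were found in the table of gene activity, as 36 of its 24165 RefSeq entries. Hmgcs1 was not analysed here. The table comes from C2C12, an established line of mouse myoblasts, dividing precursor cells that can fuse into muscle fibres. GRO-seq, in which engaged polymerases run on in isolated nuclei with a labelled nucleotide and the nascent RNA is sequenced, was carried out on untreated cells at 80% confluency, from 4 plates of 10 cm for each isolation of nuclei. Both libraries were pooled by the authors into 1 value per entry, and the single group has no treated, differentiated or serum-starved counterpart. Gene activity is given in RPKmM, the reads per kilobase of mappable sequence, scaled to library depth, on the sense strand from 1 kb after the transcription start site to the end of the gene, so values of different genes can be set side by side per length. No standard deviation or test could be computed from a pooled value, the depth of each library is unknown, and the order of genes with similar values cannot be tested.

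Cholesterol is built from acetyl-CoA through mevalonate, isoprene units, squalene and lanosterol, and fatty acids are built from the same acetyl-CoA by carboxylation, chain assembly, elongation and desaturation. Both routes are under the control of SREBPs, transcription factors held in the endoplasmic reticulum membrane when sterols are plentiful and released by proteolysis when sterols run low. SCAP escorts SREBPs to the Golgi, where they are cut, and INSIG proteins hold the SCAP and SREBP complex back. In promoters, SREBPs commonly act beside NF-Y and Sp1.

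Transcription of this programme was measurable throughout. All 36 member entries were called active by the authors, against 70.2% of all entries, where active means a read density above that of gene deserts. The member entries had a median activity of 1.69 RPKmM (quartiles 0.735 and 2.78), 1.94 times the median of 0.87 over the 16957 active entries, and 23 of them reached 1 RPKmM. 24 of the 36 entries (66.7%) lay above the median of active entries, against 49.7% of active entries in the whole table, and 13 (36.1%) lay above the upper quartile of 1.99, against 25.0%. Counted by gene, these were 22 and 13 of the 31. The members spanned 175-fold, from 0.19 for Mvd to 33.28 for Scd2. In a bulk preparation of nuclei, fewer transcribing cells and fewer polymerases per cell cannot be told apart, so each value is an average over the culture.

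**Figure D1:**
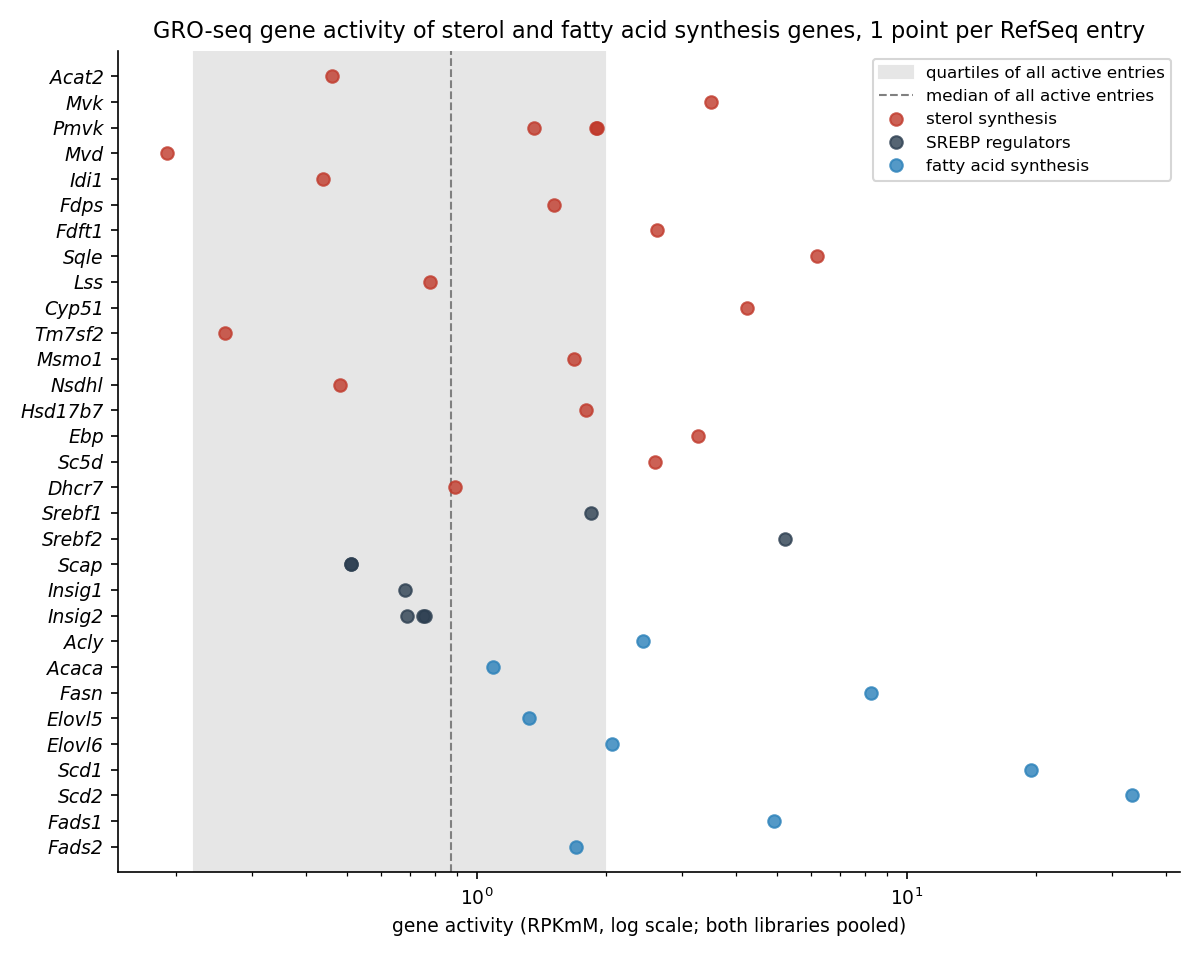
Gene activity of the 31 member genes in RPKmM on a log axis, with each RefSeq entry as a point, coloured by group, beside the quartiles (grey, 0.22 to 1.99) and the median (dashed, 0.87) of all active entries. Scd2 (33.28) and Scd1 (19.42) lie farthest to the right, and Mvd (0.19) farthest to the left.

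The labelled cell type was checked against marker genes. All 8 myoblast markers were active, from 2.39 RPKmM for Myod1 to 146.13 for Vim. All 9 myotube markers listed in the table were active too, from 0.04 for Actn2 to 14.26 for Ttn, with Myog at 2.39 and a median of 1.56. Of the defining genes of other cells that make much lipid, 4 of 6 hepatocyte markers were inactive and the others stood at 0.01 and 0.02, while 6 of 7 adipocyte markers were inactive and Pparg stood at 0.32. All 5 macrophage markers were inactive, and of 6 endothelial markers 4 were inactive and the others were at 0.01. The part of differentiating cells in the members' values was not tested.

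The 17 sterol synthesis genes had a median of 1.68 RPKmM and ranged from 0.19 to 6.18, a 32.5-fold span. 11 of them lay above the median of active entries and 6 above the upper quartile. The highest was Sqle, squalene epoxidase, which inserts the first oxygen of the sterol ring system. The lowest was Mvd, the decarboxylase that makes isopentenyl diphosphate.

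Early in the route, 5 enzymes lead from acetyl-CoA and mevalonate to the isoprene units, and their median was 0.46 RPKmM, with 2 of 5 above the median of active entries. Mvk, mevalonate kinase, stood at 3.5, higher than 87.3% of active entries. Pmvk, which adds the next phosphate, had 3 entries at 1.36, 1.89 and 1.9. Its highest entry was 1.40 times its lowest, a ratio that 74.2% of symbols with several active entries did not exceed. The following enzyme Mvd was at 0.19, so Mvk exceeded it 18.4-fold and Pmvk 9.95-fold. Acat2, the cytosolic thiolase that joins acetyl-CoA units, was at 0.46, and Idi1, the isomerase of the isoprene units, was at 0.44. These 3 genes lay below the median of active entries, Acat2 above 34.7%, Idi1 above 34.0% and Mvd above 23.5% of those entries.

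From the isoprene units to lanosterol, 4 enzymes had a median of 2.065 RPKmM, and 3 of them lay above the median of active entries. Fdps, which makes farnesyl diphosphate, was at 1.51. It holds an annotated U6 snRNA gene of 104 bp on its own strand, and the part of that gene in its value was not tested. Fdft1, squalene synthase and the first step committed to sterols, was at 2.62, and Sqle followed at 6.18, higher than 94.4% of active entries. Lss, the cyclase that closes the rings to give lanosterol, was at 0.78. The step on either side of Lss was higher, Sqle by 7.92-fold and Cyp51 by 5.46-fold.

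Beyond lanosterol, 8 enzymes had a median of 1.735 RPKmM, and 6 lay above the median of active entries. Cyp51, the lanosterol demethylase, was highest at 4.26, higher than 90.5% of active entries. Ebp, a sterol isomerase, was at 3.26, and Sc5d, a sterol desaturase, was at 2.59. The demethylating enzymes that act together on the sterol ring were spread, with Hsd17b7 at 1.79 and Msmo1 at 1.68 but Nsdhl at 0.48. Dhcr7, which reduces the last intermediate of one branch to cholesterol, was at 0.89, next to the median of active entries. Tm7sf2, a sterol reductase, was lowest at 0.26, 16.4-fold under Cyp51 and 12.5-fold under Ebp. Tm7sf2 shares 532 bp on the same strand with Vps51, which had an activity of 2.08, and the part of the overlap in its value was not tested.

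The promoters of the sterol genes highest and lowest in activity, among those with a RefSeq promoter sequence, are shown because their genes lie 22.4-fold apart in activity. Each holds the 250 bases before and 50 after the annotated start, 5′ to 3′ on the strand of the gene, in assembly GRCm38.p6 of RefSeq, and each matched mm9, the build of the deposited table, exactly and at 1 place. Capitals mark matches on either strand of CCAAT, bound by NF-Y, and GGGCGG, bound by Sp1, so that ATTGG and CCGCCC are their matches on the opposite strand.
Cyp51, mm9 chr5:4104648-4104947, minus strand: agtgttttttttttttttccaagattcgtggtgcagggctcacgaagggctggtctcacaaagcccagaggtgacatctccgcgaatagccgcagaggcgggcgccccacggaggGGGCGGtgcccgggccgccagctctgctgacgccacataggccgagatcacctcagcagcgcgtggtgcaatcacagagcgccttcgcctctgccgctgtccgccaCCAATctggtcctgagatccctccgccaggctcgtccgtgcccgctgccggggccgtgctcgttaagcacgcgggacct
Mvd, mm9 chr8:124967273-124967572, minus strand: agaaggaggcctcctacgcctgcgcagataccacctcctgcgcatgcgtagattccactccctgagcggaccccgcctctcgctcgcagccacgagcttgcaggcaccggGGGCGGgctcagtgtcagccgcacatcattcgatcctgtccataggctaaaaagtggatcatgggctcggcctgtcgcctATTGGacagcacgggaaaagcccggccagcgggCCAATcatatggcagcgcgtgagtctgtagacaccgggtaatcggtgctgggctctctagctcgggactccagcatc
In the Cyp51 window CCAAT lay 29 bases and GGGCGG 135 bases before the start, counted to the far end of each match. In the Mvd window CCAAT lay 27 bases before the start and, on the opposite strand, 60 bases before it, with GGGCGG at 140 bases. GC content was 64.7% in the Cyp51 window and 62.3% in the Mvd window.

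The 5 SREBP regulators had a median of 0.75 RPKmM by gene and 0.72 over their 8 entries. 2 of the 5 genes, both encoding the transcription factors themselves, lay above the median of active entries. Srebf2, whose product acts mainly on cholesterol genes, was at 5.21, higher than 92.8% of active entries. Srebf1, whose product acts mainly on fatty acid genes, was at 1.84, so Srebf2 exceeded it 2.83-fold. The escort Scap had 2 entries, both at 0.51, 10.2-fold under Srebf2. Of the retention proteins, Insig1 was at 0.68 and the 3 entries of Insig2 were at 0.69, 0.75 and 0.76. Insig2 thus stood at 1.10 times Insig1, a difference as large as the spread between the entries of Insig2 itself. Srebf2 holds the microRNA gene Mir33 on its own strand, over 69 bp.

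The machinery around these regulators was more active than Scap and the Insig genes, taking each gene at the median of its entries. All 10 listed genes of SREBP cleavage and turnover were active, against 13822 of all 20128 gene symbols. Each lay above the median of active entries, as did 49.7% of active entries, and their median was 2.565 RPKmM. They ranged from 0.9 for Erlin2, a membrane protein of the degradation complex, to 4.4 for Rnf139, a ubiquitin ligase. The lowest entry of Fbxw7, at 0.61, lay below the median of active entries and below Insig1 at 0.68. Mbtps1 and Mbtps2, which encode the proteases that cut SREBPs in the Golgi, were at 2.33 and 1.7.

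The promoters of Srebf2 and Scap are shown as those of the highest and lowest regulator. Capitals mark CCAAT and GGGCGG on either strand and, in Scap, the E-box CACGTG and the TATA box TATAAA.
Srebf2, mm9 chr15:81977449-81977748, plus strand: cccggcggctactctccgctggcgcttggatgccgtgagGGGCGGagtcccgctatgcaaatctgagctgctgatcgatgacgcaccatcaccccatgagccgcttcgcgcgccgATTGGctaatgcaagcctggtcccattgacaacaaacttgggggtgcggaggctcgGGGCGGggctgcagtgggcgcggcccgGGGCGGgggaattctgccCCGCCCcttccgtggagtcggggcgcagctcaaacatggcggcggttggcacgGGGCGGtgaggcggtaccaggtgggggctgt
Scap, mm9 chr9:110235542-110235841, plus strand: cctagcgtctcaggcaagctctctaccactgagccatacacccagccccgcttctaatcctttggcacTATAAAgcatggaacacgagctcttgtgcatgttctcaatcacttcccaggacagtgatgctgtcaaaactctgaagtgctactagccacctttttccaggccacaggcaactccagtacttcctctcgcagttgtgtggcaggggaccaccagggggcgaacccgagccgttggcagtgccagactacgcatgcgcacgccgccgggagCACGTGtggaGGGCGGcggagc
The Srebf2 window held 5 matches to GGGCGG, of which 1 lay 20 bases after the start, and 1 match to CCAAT. Scap has 2 overlapping windows, of which the first is shown. It held 1 match to GGGCGG, the other window held 3, and neither held CCAAT. In the window shown, TATAAA lay 182 bases before the start, and CACGTG lay 29 bases after it.

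Fatty acid synthesis was the group with the highest values. Its 9 genes had a median of 2.44 RPKmM, ranged from 1.09 to 33.28, and all 9 lay above the median of active entries, with 6 above the upper quartile. Their geometric mean was higher, at 4.10. The desaturases that place the first double bond led the group. Scd2 was at 33.28 and Scd1 at 19.42, and 105 and 209 of the 16957 active entries, respectively, were higher. They were the 2 member entries that reached 10 RPKmM, a level met by 490 entries of the table.

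**Figure D2:**
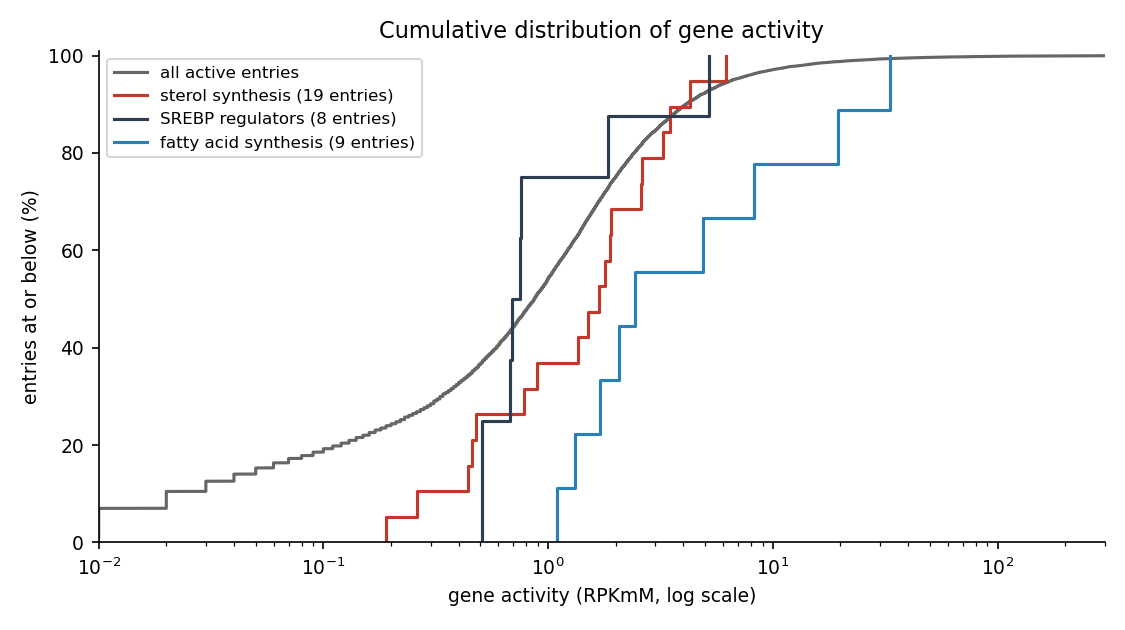
Cumulative share of entries, in percent, at or below each gene activity in RPKmM on a log axis, for all active entries and for the 3 member groups. The fatty acid synthesis curve starts at 1.09, above the median of all active entries (0.87), while the SREBP regulators start at 0.51 and sterol synthesis at 0.19.

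Among the enzymes that supply and build the chain, Acly, which makes cytosolic acetyl-CoA from citrate, was at 2.44. Acaca, the carboxylase that makes malonyl-CoA, was the lowest of the group at 1.09. Fasn, the synthase that assembles palmitate, was at 8.25, higher than 96.2% of active entries and 7.57-fold above Acaca. Scd2 exceeded Fasn by 4.03-fold and Scd1 exceeded it by 2.35-fold. The alternative source of acetyl-CoA, Acss2, was at 0.12, so Acly exceeded it 20.3-fold. Acacb, the mitochondrial carboxylase isoform, was at 0.01, where rounding to 2 decimals leaves the ratio of 109 to Acaca coarse.

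The elongases and the polyunsaturated fatty acid desaturases lay lower than the Scd genes. Elovl6, which lengthens palmitate, was at 2.06, 1.56 times Elovl5 at 1.32, which lengthens polyunsaturated chains. Outside the member list, Elovl1, which makes very long saturated and monounsaturated chains, was higher than both, at 6.24 and 7.02 in 2 entries. The other elongases were low or inactive, with Elovl4 at 0.07, Elovl7 at 0.02, Elovl3 at 0.01 and both entries of Elovl2 inactive. Fads1 was at 4.91 and Fads2, which acts before it in the polyunsaturated route, was at 1.7, a ratio of 2.89. Fads3, a related gene, was at 3.33, and Fads6 was at 0.09.

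**Figure D3:**
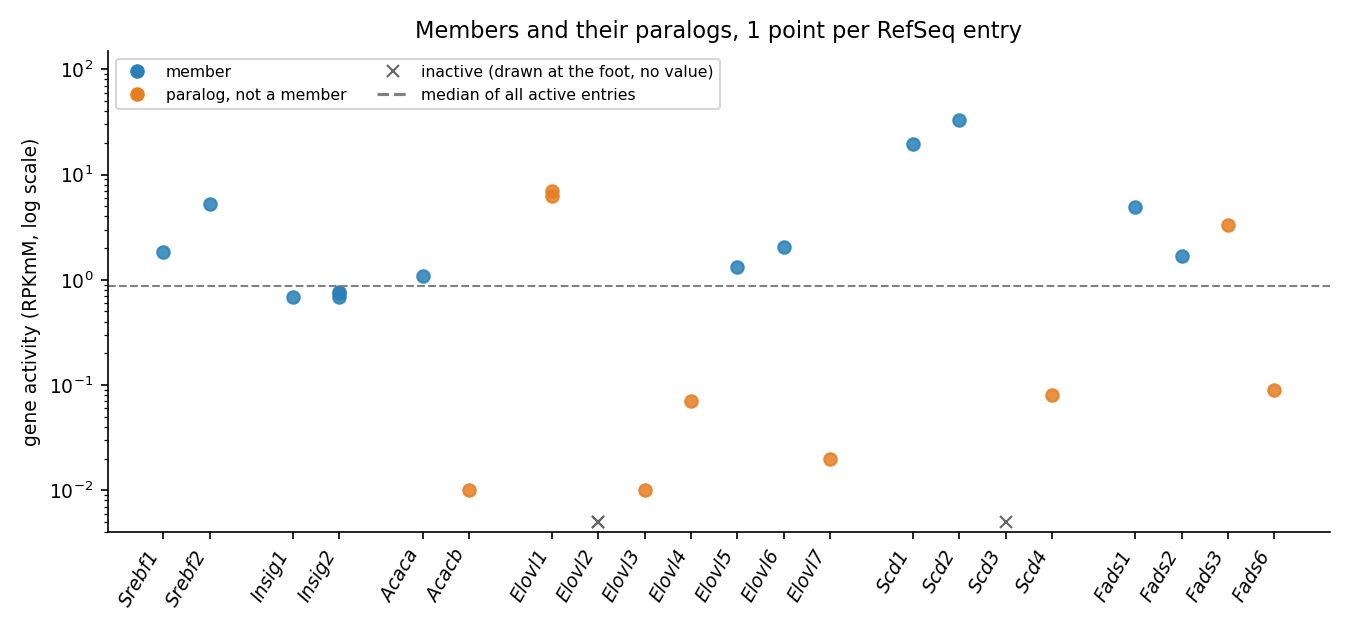
Gene activity in RPKmM on a log axis of member genes and their paralogs, 1 point per RefSeq entry, with inactive entries drawn as crosses at the foot and the median of all active entries dashed (0.87). In the Acac, Elovl, Scd and Fads families some genes lie above that median while others lie near the foot, as Scd2 (33.28) and Scd4 (0.08).

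The Scd genes, and Fads1, Fads2 and Fads3, lie in clusters on chromosome 19 of mm9, and Fads6 was not mapped here. The Scd cluster holds highly active genes beside genes with little or no activity. Scd2 spans chr19:44368166-44381354 on the plus strand. It is followed after 26.227 kb by Scd4, at 0.08 RPKmM, and after another 47.707 kb by Scd1, on the minus strand at chr19:44468941-44482199. On its other side Scd3, 49.659 kb away, was inactive. Scd2 was thus 416-fold and Scd1 243-fold above Scd4, with ratios coarse at so low a value, and Scd2 was 1.71 times Scd1.

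The sequences of Scd1 and Scd2 are related, which bears on how uniquely mapped reads are shared. Of the 21-base words of the Scd1 gene, 3.60% also occurred in Scd2, and of those of Scd2, 3.36% occurred in Scd1. For words of 76 bases the shares were 0.369% and 0.371%. Scd2 also holds an annotated microRNA gene of 61 bp on its own strand.

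In the second cluster, Fads3 and Fads2 lie 4.492 kb apart with their ends facing each other, and Fads1 follows 81.384 kb beyond Fads2, on the plus strand at chr19:10257378-10271360. All 3 were active, and Fads2, between the others, was lowest.

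**Figure D4:**
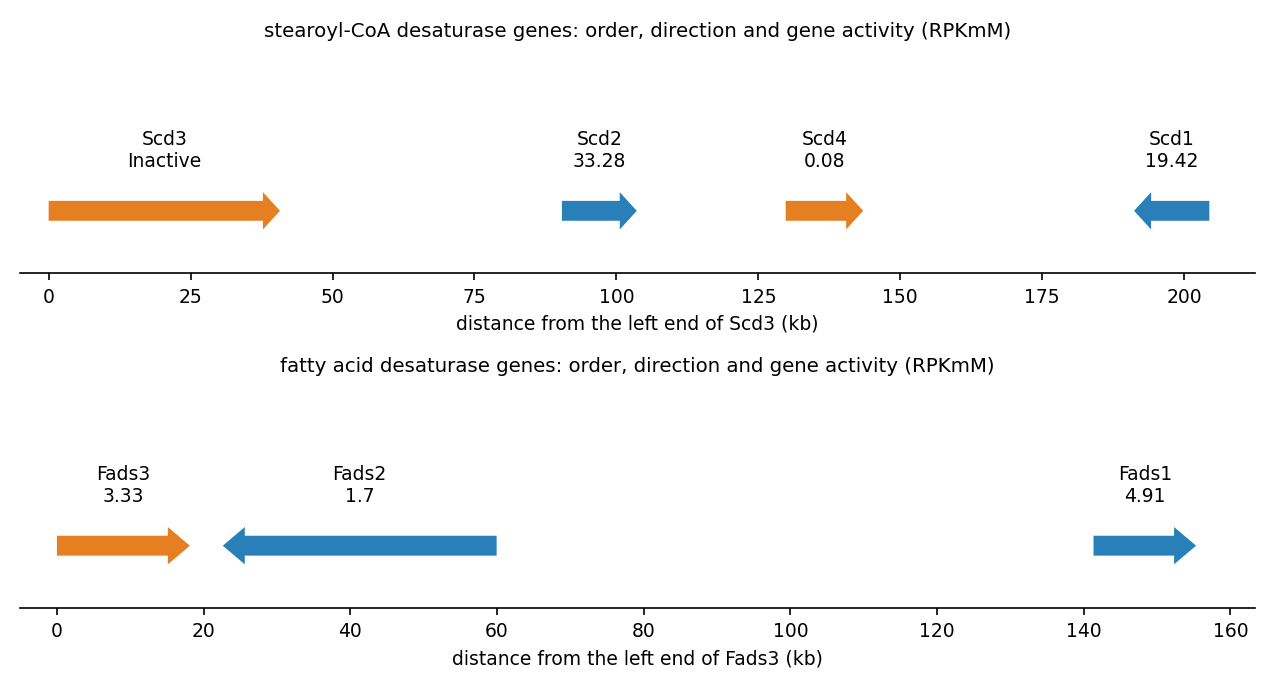
Maps to scale of the Scd cluster (above) and the Fads cluster (below), as distance in kb from the left end of the first gene. Arrows give the direction of transcription, blue for members and orange for other genes, and the gene activity in RPKmM stands over each arrow. High and low Scd genes alternate, with Scd3 inactive, Scd2 at 33.28, Scd4 at 0.08 and Scd1 at 19.42.

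The RefSeq promoter windows of Fasn and Acaca are shown as those of the highest and lowest fatty acid gene that has one. The Acaca window may not hold a promoter. Capitals mark CCAAT on either strand.
Fasn, mm9 chr11:120685812-120686111, minus strand: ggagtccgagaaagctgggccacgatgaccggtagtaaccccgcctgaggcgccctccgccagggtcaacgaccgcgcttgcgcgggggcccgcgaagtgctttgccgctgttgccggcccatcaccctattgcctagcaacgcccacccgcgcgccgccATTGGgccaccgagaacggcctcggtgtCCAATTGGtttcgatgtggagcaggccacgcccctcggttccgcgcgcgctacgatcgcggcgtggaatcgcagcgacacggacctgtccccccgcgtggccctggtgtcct
Acaca, mm9 chr11:84008690-84008989, plus strand: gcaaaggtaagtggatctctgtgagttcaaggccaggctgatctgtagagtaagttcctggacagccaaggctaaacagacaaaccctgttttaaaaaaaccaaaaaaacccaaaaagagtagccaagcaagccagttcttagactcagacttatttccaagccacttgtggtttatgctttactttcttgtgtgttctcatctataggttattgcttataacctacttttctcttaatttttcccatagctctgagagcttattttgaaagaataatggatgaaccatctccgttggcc
Fasn held 3 matches to CCAAT within 90 bases of the start, of which 2 on opposite strands overlap in the run CCAATTGG. The start in the Fasn window lies 369 bp upstream of that annotated by GENCODE vM1. The annotated start in the Acaca window lies 65766 bp inside the GENCODE gene, directly after the letters cccatag. Whether transcription starts there, or only an exon begins there, was not tested. The Acaca window held no match to any motif searched. Its GC content was 39.7%, against 69.3% for Fasn, which cannot be read as a contrast between promoters.

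Across the members, promoter windows were found for 25 of 31 genes, 33 windows in all, and were set beside 32851 windows of the RefSeq table. Fdps, Fdft1, Sqle, Scd1, Scd2 and Fads1 had none. CCAAT occurred in 21 of 33 member windows (63.6%, 20 genes), against 37.4% of all windows and 37.4% of the 13423 windows of symbols with an active entry. The 20 genes include 13 sterol genes (among them Mvk, Idi1, Lss, Nsdhl, Ebp and Dhcr7), 4 regulators (Srebf1, Srebf2, Insig1 and Insig2) and 3 fatty acid genes (Acly, Fasn and Elovl5).

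GGGCGG occurred in 24 member windows (72.7%), against 60.1% of windows of active symbols and 35.7% of all windows. Base composition moved with it, since the median GC content was 61.3% in member windows, 60.3% in windows of active symbols and 52.7% in all windows. The E-box CACGTG occurred in 7 member windows (21.2%), against 9.51% and 7.15%. TATAAA occurred in 2 (6.06%), both of Scap, against 7.45% and 13.6%. The core of the sterol regulatory element, TCACNCCAC, was found in 0 of 33 member windows, against 1.20% of windows of active symbols and 1.24% of all windows. With 1 mismatch allowed, 11 member windows held it (33.3%), among them Cyp51, Srebf2, Insig1 and Acly, against 25.2% and 24.2%. No match says only that these letters are not in the window. A match is a description of letters in a window of 300 bases and not evidence of binding, and transcripts of a gene can share much of their window.

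**Figure D5:**
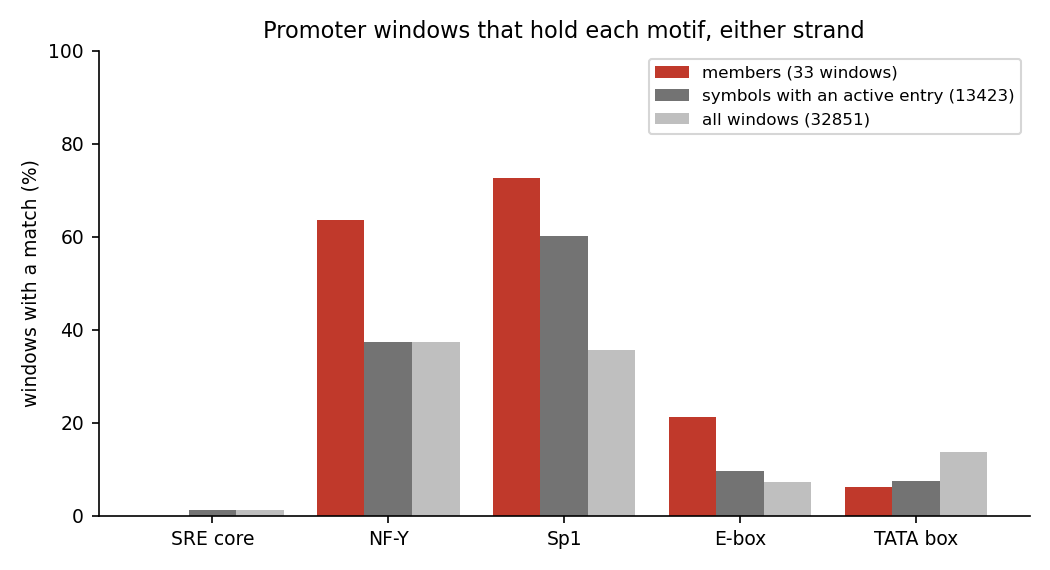
Share of promoter windows, in percent, that hold each motif on either strand, for the 33 member windows, the 13423 windows of symbols with an active entry and all 32851 windows. For CCAAT the bars stand at 63.6% in members and 37.4% in both backgrounds, while for GGGCGG the active background (60.1%) lies nearer to the members (72.7%) than to all windows (35.7%).

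Cholesterol uptake and traffic, the alternative to synthesis, was uneven. All 20 listed genes were active, against 13822 of all 20128 gene symbols. Their median was 0.7225 RPKmM, and 7 lay above the median of active entries, against 49.7% of active entries. Npc2, a lysosomal cholesterol carrier, was highest at 32.38. Soat1, which esterifies cholesterol, was at 6.73. The efflux transporters Abca1 and Abcg1 and their regulator Nr1h3 were at 0.05, 0.07 and 0.03. Apoe, the protein part of several lipoproteins, was lowest, with entries at 0.02, 0.02 and 0.12.

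Of 23 other listed genes of fatty acid synthesis, 20 were active, against 13822 of all 20128 gene symbols. These 20 had a median of 0.8575 RPKmM, and 10 of them lay above the median of active entries, against 49.7% of active entries. They ran from Acacb at 0.01 to Elovl1. Those inactive were Scd3, Elovl2 and Thrsp, a gene of lipogenic tissue.

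Activity of the members showed little relation to gene length. Over the 31 genes, from 5.553 kb (Tm7sf2) to 271.98 kb (Acaca) with a median of 18.239 kb, Spearman's rho was 0.0456 and Pearson's r of the log2 values was 0.0169. These are given across genes that share 1 pooled value each, with no test. Several members lie within 10 kb after another gene on the same strand. Ebp starts 0.336 kb after Porcn (0.65 RPKmM), Fasn 2.351 kb after Ccdc57 (0.55) and Hsd17b7 3.067 kb after Ddr2 (5.21). Pmvk lies 8.166 kb after Pbxip1 (11.44) and Acat2 6.049 kb after Wtap (5.04). The part of transcription from these neighbours in the members' values was not tested.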

How the data were processed

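GRO-seq was measured in 2 replicate libraries of 1 group, untreated C2C12 myoblasts. Per the labels and the methods, the authors processed the reads with CASAVA 1.8 and mapped them to mm9 with Bowtie2, removed reads at rRNA and tRNA repeats, and pooled the libraries. They deposited 1 value per RefSeq entry in RPKmM, an RPKM over mappable bases, or the word Inactive. The automatic check of units did not test this column, since it mixes numbers with a word, so this other unit was read from the column name and the methods. The deposited values are rounded to 2 decimals, the depth per library is not known, and 0 columns of other samples were present.

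Members were found by gene symbol, and the level of a gene with several entries is the median of its active ones. Positions are of GENCODE vM1 on mm9, and promoters are of RefSeq (GRCm38.p6). Motifs were searched on both strands. The members and lists were chosen with earlier results of these data known. Named were all members and the highest and lowest active gene of each other list. The remaining named genes, such as Soat1, Abca1, Abcg1 and the paralogs, were chosen after their values were seen. Several genes of these routes are not reported here. No p-value was computed. The order-statistic 95% interval of a median, and a 1.5-fold limit for counts and ratios, set only when an alternative counted as moved, and these calculations were tested on simulated data. Alternatives changed the entry used per gene, low-value filters, pseudocounts of 0.01 and 0.001, motif strand and window, and, chosen after seeing the data, overlapping genes, Scd1 and Scd2, motif mismatches and the motif background. The analysis used Python 3.11.15, numpy 2.4.6, pandas 2.3.3, scipy 1.17.1 and matplotlib 3.10.9.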

Additional observations from a re-analysis of the deposited data

How the results depend on the processing

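Of 48 alternative values of 17 results, 44 from alternatives planned and the others chosen after seeing the data, 44 stayed within their limit, 4 moved and 0 reversed. The median activity of the member entries ranged from 1.69 to 1.815 RPKmM, and their geometric mean was 1.62 with either pseudocount. For fatty acid synthesis the geometric mean with a pseudocount of 0.01 was 4.10 RPKmM against a median of 2.44, which counted as within the limit because the interval of a median over 9 genes is wide, and without Scd1 and Scd2 the median was 2.06. With inactive entries counted at 0, the share of member entries above the median was 94.4% in place of 66.7%, since the median of the table falls when its inactive entries join it. Searching the given strand alone gave CCAAT in 33.3% of member windows in place of 63.6%, against 21.1% of all windows. Within the 200 bases nearest the start TATAAA was found in 0 member windows. Allowing 1 mismatch in TCACNCCAC gave 33.3% in place of 0. No paired analysis was possible because both libraries were pooled into 1 column of 1 group. For the same reason no replicate could be left out, and differences between genes cannot be set against replicate error.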

Other observations

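The branches that draw isoprene units away from sterols were described by 14 listed genes. All 14 were active, against 13822 of all 20128 gene symbols. Their median was 1.7 RPKmM, and 11 of them lay above 0.87, the median of active entries, against 49.7% of active entries. Rabggtb, a subunit of the enzyme that attaches geranylgeranyl groups to Rab proteins, was highest, with entries at 33.62, 41.05 and 45.89. Its partner subunit Rabggta was at 0.71, and Pdss2, of ubiquinone side chain synthesis, was lowest at 0.695.

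Genes that break fatty acids down were all active, 22 of 22, against 13822 of all 20128 gene symbols. Their median was 0.91 RPKmM, and 12 lay above the median of active entries, against 49.7% of active entries. They ran from Ppara, a regulator of oxidation, at 0.02 to Acadl, a dehydrogenase of long chains, at 10.79. Of 18 genes of triacylglycerol storage and lipid droplets, 15 were active with a median of 0.87, and 7 lay above the median of active entries. Plin2, a droplet coat protein of many cell types, was highest at 3.71 and Mgll, a lipase, was lowest at 0.03. The droplet proteins Plin1, Cidea and Cidec, known from fat cells, were inactive.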
